A study of Homo sapiens with 10 samples.

Results

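The HOX genes, 39 protein-coding homeobox genes in 4 chromosomal clusters, and the noncoding gene HOTAIRM1 of the HOXA cluster were followed in NKX2-1GFP+ cells sorted from human thyroid organoids. They are 40 of the 28265 genes in the deposited count tables and were taken by symbol: 11 genes of HOXA, 10 of HOXB, 9 of HOXC, 9 of HOXD and HOTAIRM1. The family was chosen by the counts of HOXA3, HOXA4 and HOTAIRM1, which were known to be high up to day 31 and near 0 from day 38. The values of those 3 genes are therefore a description, as is the step from day 31 to day 38 for every HOX gene, and where calls of edgeR are listed for them nothing is read from the calls.

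The organoids came from the human embryonic stem cell line ESIBIe003-A-6, selected clones in which GFP was inserted at an NKX2-1 allele and doxycycline switches on added copies of NKX2-1 and PAX8, so all 10 libraries share these alleles and an earlier doxycycline pulse. Live GFP+ cells were collected at days 16, 23, 31, 38 and 45. Each day has 2 biological replicates, and a library pools at least 3 wells. The labels put days 16, 23 and 31 under cAMP, day 38 under TSH with dexamethasone (DEX), and day 45 under TSH with SB, the TGFβ receptor inhibitor SB431542. By the study's schedule the cAMP analogue began at day 16, so the day 16 cells had grown in basal medium, and dexamethasone stayed in the medium up to day 45. The schedule also put the change from the cAMP analogue to TSH with dexamethasone just before day 31, while the labels give cAMP for that day. Each day is a point in time and a stage of the medium, and the effects of time and medium cannot be told apart. The sort kept only cells with GFP from the NKX2-1 locus, and in bulk RNA fewer cells that express a gene and less RNA per cell cannot be told apart.

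HOX proteins are transcription factors that give cells a position along the head-to-tail axis. Within each cluster the genes lie in the order of their paralogue numbers, and genes of low number, at the 3′ end, are in general turned on earlier and further towards the head than genes of high number at the 5′ end. Retinoic acid is a classical inducer of the 3′ genes, Polycomb complexes keep silent clusters off, trithorax proteins keep active ones on, and the PBX, MEIS and PKNOX homeodomain proteins (the TALE class) bind DNA together with HOX proteins. The foregut endoderm that gives rise to the thyroid lies at the level of the pharyngeal arches, where paralogue groups 1 to 5 are used, and HOXA3 and HOXA5 have known roles in the development of the mouse thyroid.

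Promoter sequences from RefSeq (GRCh38.p14, 250 bases before to 50 after a start) were found for 20 of the 40 genes. Those of HOXA2, HOXA4 and HOXA13 are shown because these genes of the same cluster had different time courses: HOXA2 and HOXA4 were on at days 16 to 31 and at or near 0 later, and HOXA13 was at its highest on day 16. They lie on the minus strand at chr7:27102634-27102933, chr7:27130708-27131007 and chr7:27200042-27200341 and are written 5′ to 3′, with capitals for matches on either strand to CCAAT (the CCAAT box) and TGATNNAT (the HOX-PBX motif).
HOXA2: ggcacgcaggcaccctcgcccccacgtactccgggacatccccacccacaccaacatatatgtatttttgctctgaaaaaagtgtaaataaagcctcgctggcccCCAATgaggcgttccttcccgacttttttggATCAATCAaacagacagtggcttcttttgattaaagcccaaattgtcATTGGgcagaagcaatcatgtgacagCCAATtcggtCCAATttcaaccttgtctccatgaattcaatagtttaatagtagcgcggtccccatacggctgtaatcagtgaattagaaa
HOXA4: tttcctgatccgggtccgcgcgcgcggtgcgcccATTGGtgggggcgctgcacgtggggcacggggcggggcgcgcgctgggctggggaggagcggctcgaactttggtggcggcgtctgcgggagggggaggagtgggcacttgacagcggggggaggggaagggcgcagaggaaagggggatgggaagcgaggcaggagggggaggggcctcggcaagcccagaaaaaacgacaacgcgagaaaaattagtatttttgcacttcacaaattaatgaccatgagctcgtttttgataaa
HOXA13: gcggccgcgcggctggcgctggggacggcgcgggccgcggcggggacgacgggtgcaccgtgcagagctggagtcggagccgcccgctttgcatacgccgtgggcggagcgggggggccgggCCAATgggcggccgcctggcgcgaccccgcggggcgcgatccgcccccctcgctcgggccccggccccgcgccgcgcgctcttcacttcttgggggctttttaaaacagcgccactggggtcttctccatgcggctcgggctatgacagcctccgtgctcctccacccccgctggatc
The windows held 4, 1 and 1 CCAAT matches. HOXA2 had the only TGATNNAT match of the 3, and none held TATAAA (the TATA box) or AGGTCA (the repeat unit of retinoic acid response elements). Over all 35116 promoters of the table, 34.6% held CCAAT, 7.40% TGATNNAT, 11.5% TATAAA and 13.8% AGGTCA. GC content was 46.3% for HOXA2, 63.3% for HOXA4 and 76.3% for HOXA13, beside a median of 58.7%, and the windows held 11, 27 and 44 CpG, beside a median of 14. HOXA3 has 7 listed starts, which counts per gene cannot tell apart, and its promoters are not printed.

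Library totals ran from 7247268 to 10333933 counts, and 3 counts, taken as the smallest level above 0, equal 0.307 to 0.436 CPM (counts per 1000000 counts of a library, scaled by TMM factors). Intervals and this limit cover counting error only. The labelled cell type was checked by its markers: PAX8 had 3690 to 5738 counts and NKX2-1 400 to 1479 in every library. Of the 40 genes, 25 passed the filter of at least 5 counts in at least 2 libraries and were tested among 21014 genes. HOXA6, HOXA7, HOXA9, HOXA10, HOXC9 to HOXC12, HOXD1, HOXD4, HOXD8, HOXD9 and HOXD11 to HOXD13 did not pass. HOXD4 and HOXD11 had 0 counts in all 10 libraries, and the highest count of any of these 15 genes was 11. A gene that passed only through the days on which it was high had to differ between days, so the 25 do not stand for all HOX genes.

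The summed level of the HOX genes was high on days 16, 23 and 31 and low on days 38 and 45. It was 188 ± 26.6, 201 ± 12.5 and 178 ± 8.10 CPM on the first 3 days and 13.1 ± 2.20 and 11.6 ± 0.566 CPM on the last 2 (mean ± SD, n = 2 libraries per day, as for all means below). In counts, the 6 early libraries held 1336 to 1889 HOX counts each and the 4 late ones 83 to 126. The HOXA sum was 101 ± 24.6, 106 ± 8.50, 101 ± 6.90, 2.24 ± 2.10 and 0.872 ± 0.615 CPM from day 16 to day 45. The HOXB sum was 69.9 ± 2.53, 86.1 ± 1.53, 72.1 ± 1.40, 7.52 ± 0.558 and 8.43 ± 0.804 CPM. HOXB was thus the larger of the 2 sums on the late days and HOXA on the early ones. HOXC had sums of 14.5 ± 3.30, 8.14 ± 2.13, 4.74 ± 2.35, 1.80 ± 0.254 and 0.928 ± 1.31 CPM, and its lower sums on days 23 and 31 were mostly those of HOXC13, which had 9.68 CPM on day 16 and 0.619 on day 31. The daily mean of the HOXD sum was at most 2.35 CPM. On day 16, HOXD took 0.225% of the HOX counts of replicate 1 and 2.08% of those of replicate 2.

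The shares of the clusters in the HOX counts are given as a description, since HOXA3 and HOXA4, whose counts helped to choose the family, are part of the HOX counts. HOTAIRM1 is not part of them. HOXA took 49.6 to 57.6% of the HOX counts of an early library and 3.88 to 25.4% of a late one. HOXB took 34.6 to 44.4% early and 54.0 to 74.7% late. Paralogue groups 1 to 5 took 80.2 to 92.5% early and 39.7 to 54.4% late. The shares of the early and late libraries do not overlap, but a late library holds few HOX counts. By exact 95% binomial intervals (Clopper-Pearson) the late HOXA shares reach up to 33.9% and the early ones down to 46.9%, while the late HOXB shares reach down to 44.9% and the early ones up to 46.8%, so that the HOXB intervals overlap. The HOXB share was higher late although the HOXB sum was lower.

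**Figure D1:**
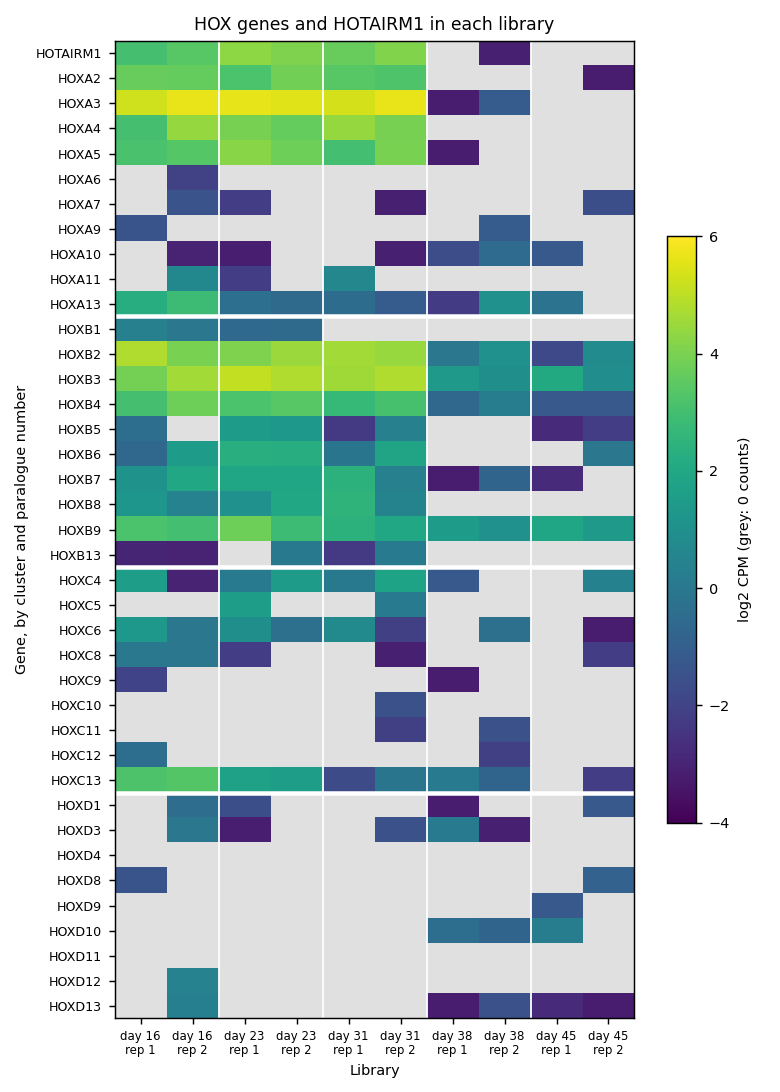
Each row is a HOX gene or HOTAIRM1, ordered by cluster (HOXA, HOXB, HOXC, HOXD from top to bottom) and paralogue number, and each column is 1 of the 10 libraries; colour gives log2 CPM and grey 0 counts. HOXA2 to HOXA5, HOTAIRM1 and HOXB2 to HOXB4 are bright in the 6 libraries of days 16 to 31, and of these the HOXB genes alone keep counts in all 4 late libraries.

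More than 3 counts in both libraries of a day were found for 17 HOX genes on day 16, 18 on day 23, 14 on day 31, 6 on day 38 and 2 on day 45. On days 16, 23 and 31, 6 of the 11 HOXA genes met this limit, and on days 38 and 45 0 did. Of the 10 HOXB genes, 8, 9, 7, 4 and 2 met it on the 5 days, and the last 2 were HOXB3 and HOXB9. HOXD10 was the only HOXD gene to meet it on any day, on day 38.

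The genes at the 3′ end of HOXA were expressed up to day 31 and at or near 0 in both day 38 libraries. HOXA2 (chr7:27100354-27102686, minus strand as all HOXA genes), which gives the second pharyngeal arch its identity, had 101 and 100, 82 and 128, and 102 and 81 counts on days 16, 23 and 31. It had 0 on day 38 and 0 and 1 on day 45, so its day 31 level was at least 29.5-fold that of day 38, with 3 counts per library as the limit.

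HOXA3, which acts in the pharyngeal pouches, had the most counts of all HOX genes. It had 304 and 413 counts on day 16, 446 and 402 on day 23 and 404 and 435 on day 31, then 1 and 4 on day 38 and 0 on day 45. Its mean was 44.7 ± 8.70, 47.7 ± 2.46 and 46.0 ± 6.55 CPM on the early days, and day 31 was 163-fold day 38 in summed counts per summed library size (95% counting interval 69.6 to 504). The log2 fold change of HOXA3 in this step was -7.28 with all libraries and -8.55 to -6.58 with 1 left out. HOXA4 had 65 and 174, 141 and 110, and 207 and 132 counts on the early days and 0 in every late library, which makes day 31 at least 54.3-fold day 38. HOXA5 (chr7:27141052-27143681), with roles in lung and thyroid development, had 69 and 84, 168 and 121, and 78 and 137 counts, then 1 and 0 on day 38 and 0 on day 45. In all 4 genes the early and late libraries lay far apart. In CPM the early days overlapped each other, except that both day 23 libraries of HOXA5 lay above both of day 16 and both day 31 libraries of HOXA2 below both of day 16.

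HOTAIRM1 (chr7:27095647-27100265, plus strand), a noncoding gene on the strand opposite to the HOXA genes, had 65 and 86 counts on day 16, 177 and 146 on day 23 and 125 and 146 on day 31. A single count was left in the 4 late libraries, on day 38. The strand setting of the counting is not given in the sources used here, so reads of genes that overlap on opposite strands cannot be told apart. Of the exon bases, 55.1% of HOTAIRM1, 52.2% of HOXA4 and 80.2% of HOXA3 belong to no other annotated gene, and their counts are uncertain for the rest. HOTAIRM1 shares 43.2% on the same strand and 1.74% on the opposite strand only. For HOXA4 these parts are 31.3% and 16.5%, and for HOXA3 9.3% and 10.6%. The strand setting bears only on the opposite-strand part. HOXA2 and HOXA5 share none, and their counts show the same early and late levels. HOXA-AS2, antisense to HOXA3 and HOXA4, had 17 to 61 counts in the early libraries and 0 in the late ones. It and HOTAIRM1 were called lower on day 38 among 10 tested noncoding genes of the clusters, beside 6.23% of all genes, and the call of HOTAIRM1 was fixed by the choice of the family.

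The 5′ part of HOXA was near 0 throughout, apart from HOXA13. HOXA6, HOXA7, HOXA9 and HOXA10 did not pass the filter, and HOXA11 had 13 and 15 counts in single libraries of days 16 and 31 and 0 to 2 in the others. HOXA13 (chr7:27193503-27200091), which acts in the hindgut and the digits, had 37 and 59 counts on day 16. It had 7 and 6 counts on day 23, 7 and 4 on day 31, 2 and 18 on day 38 and 6 and 0 on day 45. Day 16 lay above every other library, and the 2 libraries of day 38 differed from each other by more than those of days 23 and 31 did. The HOXA counts left on day 38 were mostly of HOXA13 and of HOXA10, which had 3 and 6.

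Of the genes on either side of HOXA, SKAP2 was lower from day 38, as the 3′ HOXA genes were, while EVX1 and HIBADH were already lower on day 31. SKAP2 (chr7:26667068-26995239), an adaptor protein gene and the nearest of the listed neighbours on the 3′ side of the cluster, had 452 to 635 counts in the early libraries and 128 to 236 in the late ones. It fell from 58.8 ± 8.77 CPM on day 31 to 16.8 ± 4.14 CPM on day 38 (log2 fold change -1.81, SE 0.234, adjusted p = 3.5e-07, edgeR), and its early and late libraries did not overlap. EVX1 (chr7:27242700-27250493), a homeobox gene beyond HOXA13, had 141 and 74 counts on day 16, 44 and 37 on day 23, 10 and 11 on day 31, 1 and 6 on day 38 and 0 on day 45. Its fall from day 16 to day 31 passed the test (log2 fold change -3.54, SE 0.849, adjusted p = 0.00333, edgeR), but not without day 16 replicate 1 (-2.96). HIBADH, farther out on that side, was expressed in all libraries (455 to 1434 counts) and fell from 158 ± 26.9 CPM on day 16 to 95.9 ± 4.79 on day 31 (log2 fold change -0.72, SE 0.157, adjusted p = 0.00124, edgeR). It had 97.0 ± 2.94 CPM on day 38 and 69.0 ± 4.18 on day 45. Of 22 tested genes that flank the 4 clusters, 1 was higher and 3 lower on day 23 than on day 16 (10.9% of all genes were called in either direction), 0 and 4 on day 31 than on day 16 (12.9%), 3 and 3 on day 38 than on day 31 (15.0%), and 1 and 6 on day 45 than on day 38 (11.2%).

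**Figure D2:**
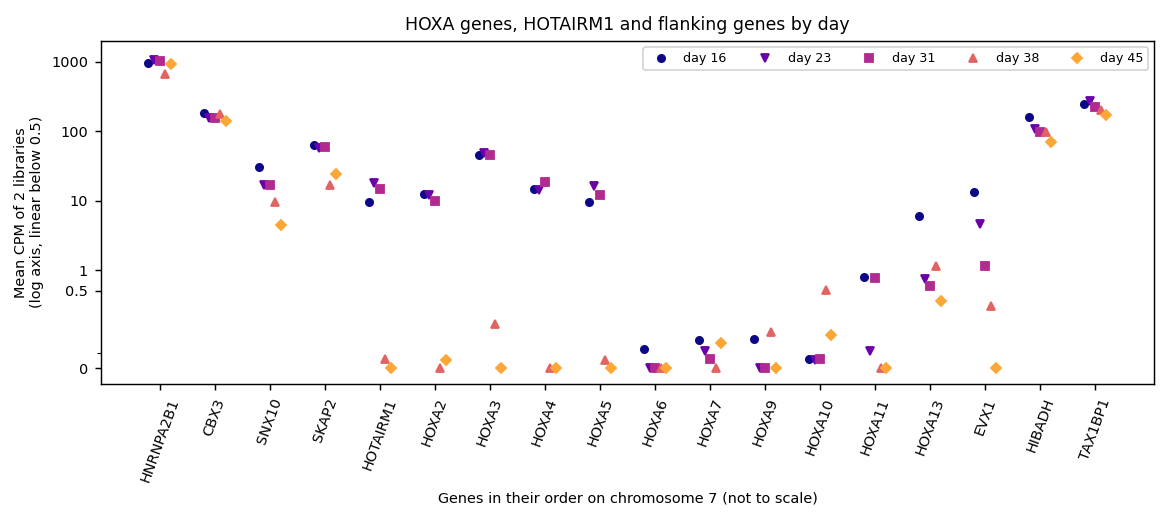
HOXA genes, HOTAIRM1 and 7 flanking genes stand in their order on chromosome 7 (spacing not to scale), and points give the mean CPM of 2 libraries for each day on an axis that is logarithmic above 0.5 and linear below. For HOTAIRM1 and HOXA2 to HOXA5 the points of days 16, 23 and 31 lie between 9.42 and 47.7 CPM and those of days 38 and 45 at or near 0, HOXA6 to HOXA11 stay below 1 CPM, and SKAP2 on the left and HIBADH on the right are expressed on all days.

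HOXB2, HOXB3 and HOXB4 kept some counts in every library of days 38 and 45, though on day 45 HOXB3 alone of the 3 had more than 3 in both. HOXB2 (chr17:48540894-48545109), a hindbrain gene, had 223 and 130, 153 and 195, and 241 and 187 counts on days 16, 23 and 31, then 9 and 18 on day 38 and 2 and 16 on day 45. Its day 31 level was 15.4-fold that of day 38 (95% counting interval 10.4 to 23.7) and 20.8-fold that of day 45 (12.99 to 35.4). HOXB3 (chr17:48548870-48604912), the counterpart of HOXA3 in this cluster, had 120 and 200, 302 and 248, and 235 and 243 counts, then 24 and 17 on day 38 and 29 and 17 on day 45. Day 31 was 11.3-fold day 38 (8.23 to 16.0) and 9.08-fold day 45 (6.70 to 12.6). HOXB4 (chr17:48575507-48578350), known for its action in blood stem cells, had 65 and 112, 81 and 92, and 64 and 74 counts, then 6 and 10 and 3 and 4. All early libraries lay above all late ones for each of the 3 genes. HOXB3 overlaps HOXB4 and HOXB6 in the annotation, and 88.3% of its exon bases are its own.

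Set beside the HOXA genes of the same paralogue groups, the folds of HOXB3 and HOXB4 from day 31 to day 38 were smaller. The lower limit for HOXA3 over day 38 (69.6) lies above the upper limit for HOXB3 (16.0), and the bound for HOXA4 (at least 54.3) lies above the upper limit for HOXB4 (15.1). The bound for HOXA2 (at least 29.5) lies above the upper limit for HOXB2 (23.7) by less than 1 library can move it: the log2 fold change of HOXB2 was -3.92 with all libraries and -4.56 without day 38 replicate 2. Over day 45 the limits of group 3 were again apart (at least 121 for HOXA3 beside at most 12.6 for HOXB3). Those of group 4 lay close together (at least 47.9 for HOXA4 beside at most 43.6 for HOXB4), less far apart than the 2 day 31 libraries of HOXA4, and those of group 2 overlapped, with 28.3 as the lower limit for HOXA2 and 35.4 as the upper limit for HOXB2. In group 13 no order can be given: the log2 fold change of HOXA13 from day 31 to day 38 was 0.94 with all libraries and -1.40 without day 38 replicate 2, and HOXB13 had 2 and 9 counts on day 31 and 0 on day 38. These intervals cover counting error in 2 libraries per day and not the spread between replicates, and the values are a description. The late counts of HOXA3 and HOXA4 near 0 helped to choose the family. Nothing is therefore read from their order against HOXB3 and HOXB4.

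HOXB9 (chr17:48621156-48626358), a gene of the thoracic level, kept 18 to 26 counts in each late library. It had 71 and 65 counts on day 16, 124 and 63 on day 23, 52 and 33 on day 31, 26 and 18 on day 38 and 26 and 24 on day 45. The day 31 level was 1.88-fold that of day 38 (95% counting interval 1.29 to 2.77) and 1.49-fold that of day 45 (1.04 to 2.15). The remaining HOXB genes had daily means of at most 4.73 CPM. HOXB8 had 11 to 56 counts in the early libraries and 0 in all 4 late ones, a fold of at least 10.6 from day 31 to day 38. This bound rests mostly on a single library, since those of day 31 had 0.581 and 2.38 CPM per kilobase of exon. HOXB6 had 5 to 43 early, 0 on day 38 and 0 and 9 on day 45, and 67.1% of its exon bases are its own. HOXB7 had 11 to 53 early and 0 to 5 late, HOXB5 0 to 25 early and 0 to 2 late, and HOXB13 at most 9. HOXB1, a gene of hindbrain patterning, had 10 and 8 counts on day 16, 6 and 6 on day 23 and 0 from day 31.

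**Figure D3:**
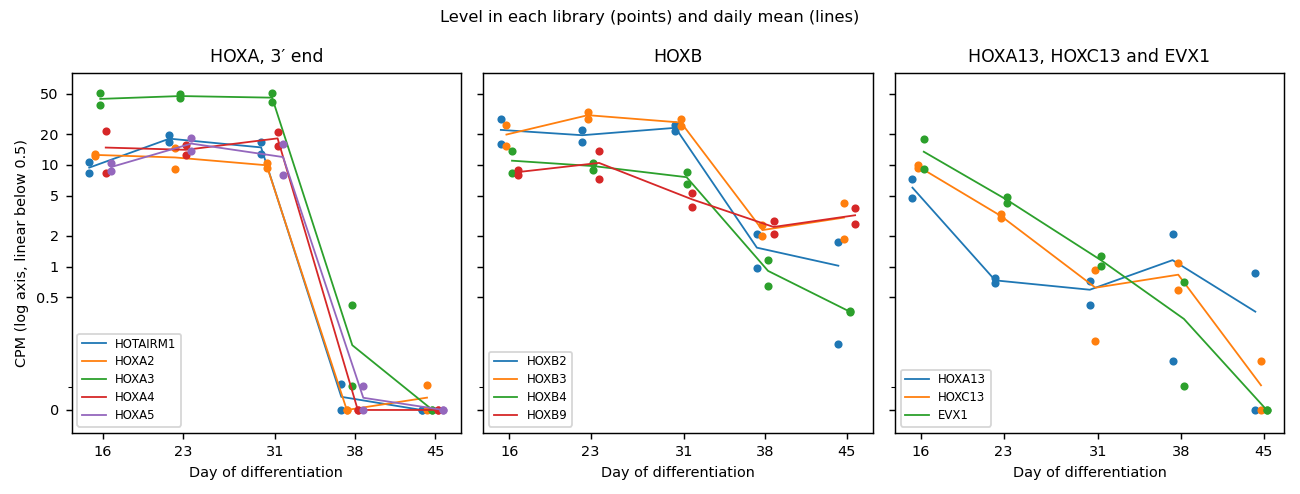
Points give CPM in each library and lines the daily mean against the day of differentiation, on an axis that is logarithmic above 0.5 and linear below, for HOTAIRM1 and HOXA2 to HOXA5, for HOXB2, HOXB3, HOXB4 and HOXB9, and for HOXA13, HOXC13 and EVX1. HOTAIRM1 and HOXA2 to HOXA5 drop to at most 0.466 CPM on day 38, HOXB3 and HOXB9 stay at 1.86 CPM or more in every library, and HOXC13 and EVX1 decline from day 16 to day 31.

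HOXC13 was the HOX gene that passed the test before day 38. This gene of the 5′ end of HOXC (chr12:53938831-53946544), which acts in hair and nail, had 73 and 82 counts on day 16, 30 and 26 on day 23, 3 and 8 on day 31, 10 and 5 on day 38 and 0 and 2 on day 45. Its mean was 9.68 ± 0.595, 3.15 ± 0.249 and 0.619 ± 0.441 CPM on the first 3 days, and these days did not overlap. It was lower on day 31 than on day 16 (log2 fold change -3.95, SE 1.03, adjusted p = 0.0073, edgeR). The call was lost without day 16 replicate 2 (-3.88) and without day 31 replicate 1 (-3.35). HOXA13 had a log2 fold change of -3.30 (SE 1.41, adjusted p = 0.133, edgeR) in the same comparison and did not pass; a fit to only the 4 libraries compared gave -3.30 (adjusted p = 0.0103) and called it. Summed over its members, paralogue group 13 had 16.4 ± 3.28 CPM on day 16, 4.39 ± 0.415 on day 23 and 1.84 ± 0.859 on day 31.

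The other HOXC and HOXD genes had low counts. HOXC4 had 1 to 30 counts early and 0 to 12 late, and its paired libraries differed widely, with 24 and 1 on day 16. HOXC5 had 27 and 9 counts in 1 library each of days 23 and 31 and 0 in all others, HOXC6 had 2 to 20 early and 0 to 7 late, and HOXC8 at most 8. HOXD10, a limb gene, had 0 counts in all 6 early libraries and 7, 5, 8 and 0 in the late ones. HOXD3 had at most 10 counts, on day 38. The day 31 level of HOXC4 was 9.72-fold that of day 38 (95% counting interval 3.51 to 37.4) and that of HOXC6 2.64-fold (1.06 to 7.43), and neither was called by edgeR in this step.

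Levels of different genes can be set side by side only per length of exon. On day 31, HOXA3 had 10.7 ± 1.52 CPM per kilobase, HOXA4 10.6 ± 2.38, HOTAIRM1 9.95 ± 1.98 and HOXB2 9.45 ± 0.837, and these neighbours differed by less than their spread. Per kilobase of exon shared with no other gene, as if all reads came from there, the order changed to HOXA4 with 20.3, HOTAIRM1 with 18.1, HOXA3 with 13.3 and HOXB2 with 9.80 CPM. HOXA5 followed with 6.96 ± 3.27 and HOXA2 with 4.26 ± 0.308. HOXB4 had 3.79 ± 0.728 and HOXB3, the longest of them in the annotation, 3.52 ± 0.402. On day 38 the order began with HOXB9 at 0.948 ± 0.195, HOXB2 at 0.625 ± 0.324 and HOXB4 at 0.453 ± 0.182 CPM per kilobase, again with overlapping spreads between neighbours. No gene of the 3′ end of HOXA was among the first 12 on that day.

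In the early steps the HOX genes passed few tests. From day 16 to day 23, 0 of the 25 tested were called at an adjusted p under 0.05 by edgeR, where 10.9% of all tested genes were. DESeq2 also called 0, and the unadjusted p was under 0.05 for 1 gene, HOXA13 (log2 fold change -3.01, SE 1.39). Over all 21014 genes tested, 4873 had an unadjusted p under 0.05 in this step. From day 23 to day 31, 0 were called by either tool, beside 2.25% of all genes, and HOXC13 alone had an unadjusted p under 0.05 (log2 fold change -2.34, SE 0.999). Of all 21014 genes, 2386 were under this limit. From day 16 to day 31, 1 was called lower (HOXC13) by either tool, beside 12.9% of all genes in either direction. HOXA2 changed by -0.34 (SE 0.532), HOXA5 by 0.32 (SE 0.523), HOXB2 by 0.07 (SE 0.418) and HOXB3 by 0.39 (SE 0.357) on the log2 scale over these days, all less than their errors or about as much.

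From day 31 to day 38, 11 of the 25 were called lower and 0 higher, beside 6.23% of all genes called lower and 15.0% in either direction. They included HOXA2 to HOXA5, HOTAIRM1, HOXB2, HOXB3, HOXB4, HOXB6 and HOXB8, and the median log2 fold change of the 25 was -3.92, against 0 over all genes. The counts of this step chose the family, and nothing is read from these shares. HOXB2 had a log2 fold change of -3.92 (SE 0.511), HOXB3 of -3.50 (SE 0.421), HOXB4 of -3.05 (SE 0.663) and HOXB9 of -0.90 (SE 0.612). Without either day 38 library 9 were called, with HOXB6 and HOXB8 lost, and without day 31 replicate 1 10 were, with HOXB8 lost. Without day 31 replicate 2 there were 11, with HOXB7 in place of HOXB6. Scaling by library size alone shifted the median of all genes by -0.20 in this step and left the same 11 genes called. From day 38 to day 45, 0 of the 25 were called by edgeR or DESeq2, beside 11.2% of all genes, and 3 had an unadjusted p under 0.05 (HOXB6, HOXC13 and HOXA3, the last of which helped to choose the family). Of all 21014 genes, 4697 had an unadjusted p under 0.05 in this step.

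**Figure D4:**
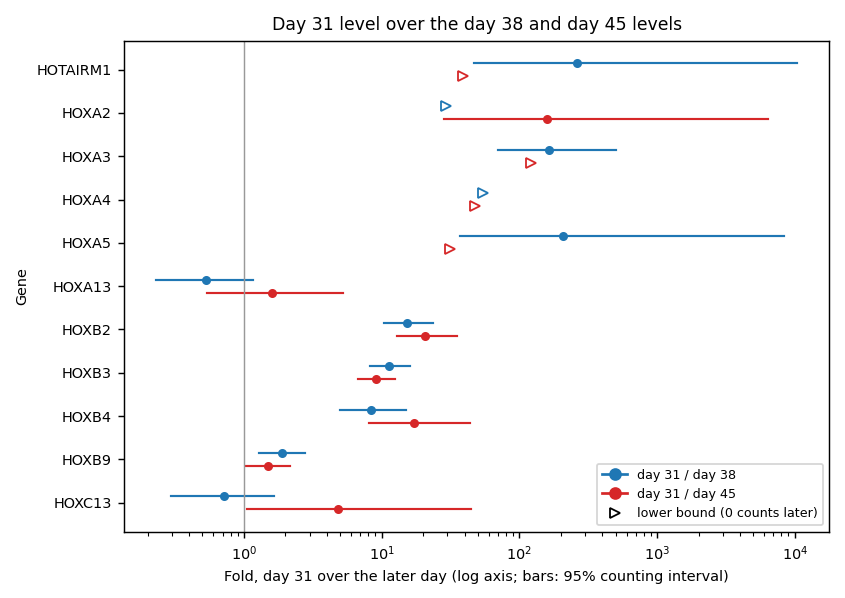
For 11 genes, points give the summed counts of day 31 per summed TMM-scaled library size divided by the same for day 38 (blue) or day 45 (red) on a log axis, bars the 95% counting interval, and open triangles lower bounds (the mean CPM of day 31 over that of 3 counts per library) where the later day had 0 counts. The genes from HOXA2 to HOXA5 and HOTAIRM1 lie at 29.5 or above, HOXB2, HOXB3 and HOXB4 between 8.38 and 20.8, and HOXB9 between 1.49 and 1.88, while HOXA13 and HOXC13 have intervals that include 1 for day 38.

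To place the loss of the 3′ HOXA genes among all genes, those with at least 50 counts in all 6 libraries of days 16 to 31 and at most 5 in all 4 libraries of days 38 and 45 were counted. These limits were set after the values were seen. Of 10545 genes that met the first limit, 7 met both (0.0664%), among them HOXA2, HOXA3, HOXA4, HOXA5, HOTAIRM1 and SLC6A2, the noradrenaline transporter. HOXB2, HOXB3 and HOXB4 met the first limit only. With at most 20 counts allowed on the late days, 11 genes met both limits, HOXB2 and HOXB4 among them. The count is a description, since such a loss is what drew attention to these genes.

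HOX cofactors were expressed at all stages. Of the TALE genes, MEIS1 had 86 to 179 counts in the 10 libraries and MEIS2 339 to 820. Of 9 TALE genes tested, 0 were called from day 16 to day 23 (10.9% of all genes were called in either direction), PBX3 lower on day 31 than on day 16 (12.9%) and day 23 (2.25%), and PKNOX2 higher on day 38 than on day 31 (15.0%). From day 38 to day 45, 3 were lower, PBX3 and MEIS2 among them, where 11.2% of all genes were called. None of the calls of PBX3, PKNOX2 and MEIS2 held when each library was left out in turn, and no fold change is given for them. Of the CDX and paraHOX genes, relatives of the HOX genes, 2 of 6 could be tested, neither was called by edgeR in any of the 5 comparisons, and CDX2 had 7 to 55 counts in all libraries.

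Genes of the retinoic acid pathway changed on several days, but not as a block. Of 17 tested, 5 were higher and 0 lower on day 23 than on day 16 (10.9% of all genes were called in either direction), 5 and 1 on day 31 than on day 16 (12.9%), 3 were higher and 3 lower on day 38 than on day 31 (15.0%), and 2 were higher and 2 lower on day 45 than on day 38 (11.2%). CYP26B1, which breaks retinoic acid down, had 4 and 16 counts on day 16, 110 and 78 on day 23, 189 and 187 on day 31 and 528 and 438 on day 38. It rose from day 16 to day 31 (log2 fold change 4.03, SE 0.420, adjusted p = 5.57e-09, edgeR) and again to day 38 (1.39, SE 0.317, adjusted p = 0.00167). ALDH1A1, which makes retinoic acid, rose from 26.5 ± 2.28 CPM on day 16 to 97.7 ± 5.90 on day 23, and DHRS3, which reduces retinal, rose from 9.87 ± 0.502 CPM on day 16 to 56.9 ± 12.1 on day 31. ALDH1A1, RXRG and STRA6 were the 3 called lower on day 38 than on day 31, and none of these calls held when each library was left out in turn. ALDH1A1 had 67.7 ± 1.05 CPM on day 31 and 39.1 ± 5.13 on day 38. CRABP1, a retinoic acid binding protein, had 3 and 0 counts on day 31 and 372 and 236 on day 38, the opposite of the 3′ HOXA genes over the same step.

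Some Polycomb and trithorax genes were called in each of these steps. Of 21 Polycomb genes tested, 1 was higher and 0 lower on day 31 than on day 16 (12.9% of all genes were called in either direction), 0 were higher and 2 lower on day 38 than on day 31 (15.0%), and 2 were higher and 2 lower on day 45 than on day 38 (11.2%). JARID2, a PRC2 subunit, fell from 180 ± 9.15 to 96.2 ± 0.675 CPM between days 31 and 38 (log2 fold change -0.90, SE 0.140, adjusted p = 1.04e-05, edgeR). EZH2, the PRC2 methyltransferase, was not called and had 359 to 534 counts in the 10 libraries. The PRC1 subunits RING1 and BMI1 had few counts, 0 to 11 and 0 to 12. CBX2, also a PRC1 subunit, was lower on day 45 than on day 38, with a log2 fold change of -1.79 (SE 0.314, adjusted p = 9.41e-05, edgeR). KMT2A, the trithorax methyltransferase known for keeping HOX genes active, had 331 ± 5.16 CPM on day 16, 492 ± 37.7 on day 31 and 329 ± 24.5 on day 38. Its rise to day 31 (adjusted p = 0.000753, edgeR) and its fall to day 38 (log2 fold change -0.58, SE 0.120, adjusted p = 0.000598) both passed. Of 10 trithorax and demethylase genes, 2 were higher and 0 lower on day 31 than on day 16, 0 and 2 on day 38 than on day 31, and 2 and 0 on day 45 than on day 38, beside the same shares of all genes.

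Of 10 tested regulators of hindbrain segments and pharyngeal arches, 0 were higher and 2 lower on day 23 than on day 16 (10.9% of all genes were called in either direction), 0 and 4 on day 31 than on day 16 (12.9%), 3 and 1 on day 38 than on day 31 (15.0%), and 2 and 3 on day 45 than on day 38 (11.2%).

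Markers of other cell types also moved between days 31 and 38. The summed level of 6 fibroblast markers, led by COL1A2, was 308 to 440 CPM in the early libraries and 1139 to 1353 CPM in the late ones. Its members went both ways from day 31 to day 38: COL1A2 rose from 182 ± 39.8 to 1157 ± 8.76 CPM and LUM fell from 98.7 ± 3.47 to 42.0 ± 6.01 CPM (edgeR), while DCN had 47.8 ± 6.64 and 50.8 ± 1.82 CPM and was not called. That of 6 cardiac and smooth muscle markers, led by MYH6, was 20.7 to 36.8 CPM early and 162 to 207 CPM late. Thyroid markers, led by TG, went from 1586 ± 38.5 to 6968 ± 539 CPM, neuron markers, led by TUBB3, from 31.3 ± 8.45 to 51.6 ± 4.32 CPM, and goblet markers from 5.33 ± 1.02 to 43.3 ± 9.51 CPM, of which MUC5AC had 15 and 7 counts on day 31 and 275 and 188 on day 38, and MUC5B 11 and 40, then 158 and 113. In this step edgeR called 15.0% of all genes. It called 5 of 6 muscle markers higher (4 held when each library was left out in turn), 3 of 8 thyroid markers (3 held) and 2 of 4 goblet markers (1 held, MUC5AC), and none of them lower. Of 5 neuron markers 2 were higher (1 held) and 1 lower. These sums moved the opposite way to the HOX genes. Lung markers went from 514 ± 5.65 to 13.1 ± 1.17 CPM, nearly all of it SFTPB (500 ± 1.81 and 7.60 ± 1.43 CPM), the 1 called lower of 4 tested, with SFTPC at 0 or 1 count in every library. Endothelial markers, led by KDR, went from 52.0 ± 2.68 to 21.5 ± 3.84 CPM, with 2 of 4 called lower (KDR and TEK, of which 0 held when each library was left out), and CDH5, not called, went from 0.640 ± 0.905 to 4.95 ± 0.738 CPM. The lung sum was 3.94 to 11.0 CPM in the day 16 libraries and 153 to 171 CPM in those of day 23. Pluripotency markers went from 114 ± 5.20 to 43.1 ± 1.83 CPM. Of 4 tested 2 were called lower, DPPA4, with 99.8 ± 9.14 and 19.5 ± 0.708 CPM, and TDGF1, whose call did not hold without each library. SOX2, not called, had 13.1 ± 3.03 and 22.6 ± 1.89 CPM, and POU5F1 had at most 1 count in any library. Blood, kidney and airway basal markers stayed at or below 54.3 CPM. The part of any of these cell types in the HOX values was not tested.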

How the data were processed

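RNA was sequenced from sorted NKX2-1GFP+ cells in 10 libraries, 2 per day on 5 days. Per the labels and the study's methods, the authors used Trimmomatic for trimming, HiSat2 with GRCh38 for alignment and HTSeq for counting; the deposited counts are whole numbers and not normalized. Tool versions and the strand setting are not given in the sources used here.

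Genes that reached 5 counts in 2 or more libraries were tested with edgeR 4.0.16 (R 4.3.3, glmQLFit and glmQLFTest, TMM factors), with 1 mean per day over all 10 libraries, 5 residual degrees of freedom and Benjamini-Hochberg adjustment over all 21014 genes at a threshold of 0.05. CPM values use TMM library sizes. Standard errors were taken from the F statistic and are approximate. Fold intervals are exact binomial intervals on summed counts (95%), and folds against 0 counts are bounds at 3 counts per library. The replicates are biological per the study, and p-values measure the spread between these libraries only. No label gives a batch. Paired libraries differed by more than sampling noise (chi-square per degree of freedom 8.39 to 13.7).

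The HOX genes and the gene lists were chosen with earlier results of these data known. HOX genes with a daily mean of at least 5 CPM were described per library. Other genes were named from 8 lists, mainly by the largest log2 fold changes among called genes with at least 5 CPM. Some genes that were not called, such as MEIS1, EZH2, CDX2, RING1 and BMI1, are given by their counts only. After the values were seen, values and p-values were given mainly for calls that held when each library was left out. These were 40 of 82 calls over 7 lists, without the noncoding list. Results for some genes are not reported here, though they count in the totals. Cell types were checked with 11 marker lists. Positions came from GENCODE 44 on GRCh38, promoters from RefSeq. Alternatives were DESeq2 1.42.0, other scalings and filters, a block for the replicate number, a fit to the 4 libraries compared, and leaving out each library. The procedure was tested on simulated data.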

Additional observations from a re-analysis of the deposited data

How the results depend on the processing

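Over 156 results, 2184 values were recomputed under the alternatives, and 2085 kept their side of the threshold or, where there was no test, stayed close to the value given. Of these, 27 were uncalled fold changes whose sign differed, and no called result changed sign. HOX genes called lower numbered 1 (HOXA13) instead of 0 from day 16 to day 23, and 2 instead of 1 from day 16 to day 31, when only the 4 libraries compared were fitted. Of all 21014 genes, these fits called 1166 lower from day 16 to day 23 and 1220 from day 16 to day 31. With 1 library left out, the count from day 16 to day 31 ranged from 0 to 1 and that from day 31 to day 38 from 9 to 11. No difference between replicates 1 and 2 was shared by the days. Their deviations correlated between days at -0.051 to 0.042, over 0.1 in 0 of 10 pairs of days. Whether libraries of the same number were grown together cannot be told from these correlations. With the replicate number as a block, 0, 0, 1, 11 and 0 HOX genes were called lower in the 5 comparisons and 0 higher, as without it. Of all 21014 genes, the block fit called 1324, 211, 1391, 1436 and 1540 lower and 1379, 467, 1666, 2036 and 1151 higher. With library size alone in place of TMM factors, the summed level was 108 CPM for HOXA on day 31, and 90.4, 77.0 and 6.92 CPM for HOXB on days 23, 31 and 38. At 1 CPM in place of more than 3 counts, 2 HOX genes were detected on day 38 instead of 6. Library size alone also turned the 1850 higher and 1310 lower calls over all genes from day 31 to day 38 into 1182 and 2368. The cause of these differences was not tested. At 20 early counts, 11 of 12624 genes met both limits of the loss. On the late days a library held 83 to 126 HOX counts, which limits the precision of their shares and folds.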
